A study of Mus musculus with 12 samples.

Results

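The genes described here are those of the mouse major histocompatibility complex (MHC) and of antigen presentation. They were taken by symbol from the deposited table, as every gene whose symbol starts with H2- together with B2m, Cd74, Ciita, Tap1, Tap2, Tapbp and Nlrc5. This gave 49 of the 30743 genes listed, of which 30 are class I genes or their relatives and 10 are class II genes. Of the others, 4 serve class I assembly (B2m, Tap1, Tap2 and Tapbp), Cd74 serves class II, Nlrc5 and Ciita are transactivators, and H2-Ke2 and H2-Ke6 carry the H2 name only for their place in the region.

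RNA was measured in whole livers of C57BL/6J mouse fetuses, all male and all collected at 15 ± 0.5 dpc. The mothers had been on a control diet with 13.5 kcal% fat or on a high-fat diet (HFD) with 60 kcal% fat for 12 to 14 weeks, and 6 livers of each group were sequenced as polyA-selected RNA. What the table offers for each gene apart from the authors' own comparison of the diets is 1 level, the authors' average log2 CPM (counts scaled to equal library size) over all 12 livers. That it covers all 12 livers was inferred from the column name, which names no sample or group. The values below are therefore averages over both diets without an SD, genes are not replicates of one another, and neither a diet comparison nor a test was made. A whole liver mixes cell types, so that fewer cells of a type and less RNA per cell cannot be told apart in any level below.

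MHC class I molecules display peptides from inside the cell to CD8 T cells, and they consist of a heavy chain and the invariant light chain β2-microglobulin. Peptides are cut by the proteasome, carried into the endoplasmic reticulum by the transporter of Tap1 and Tap2, and loaded with the help of tapasin (Tapbp). MHC class II molecules display peptides taken up from outside the cell and are made mainly by B cells, dendritic cells and macrophages, under the control of Ciita. In the fetus the liver is a main site of blood formation, so hepatocytes, red cell precursors and immune cells lie side by side in it.

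The tissue label was checked against marker genes. Hepatocyte markers stood above 1 CPM in 5 of 6 cases, with the authors' average at 63314 CPM for Alb and 54525 CPM for Afp, and erythroid markers in 4 of the 5 found, with Slc4a1 at 12037 CPM. Macrophage markers stood above 1 CPM in 5 of 8 cases (Marco at 208 CPM), B lineage markers in 4 of 8 (Cd79b at 14.3 CPM), dendritic cell markers in 3 of 7 (Zbtb46 at 15.2 CPM), endothelial markers in 4 of 5 (Lyve1 at 151 CPM), hematopoietic progenitor markers in 2 of 5 (Myb at 2.84 CPM) and T cell markers in 0 of 6 (Cd4 at 0.671 CPM). Of all genes, 11091 (36.1%) shared 1 lowest value, 0.152 CPM, and 10171 (33.1%) lay above 1 CPM. The smallest step above the lowest value, 0.00634 CPM, was taken as 1 read in 1 liver. Each CPM above the lowest value thus stands for about 158 reads over the 12 livers. Low values of single genes were not always a measure of their RNA, since 4 of 77 cytosolic ribosomal protein genes, which every cell uses, were also listed at the lowest value, as were the macrophage gene Emr1 and the endothelial gene Pecam1, and the erythroid gene Alas2 had 0.704 CPM. The progenitor gene Kit had about 1 read and the hepatocyte gene Serpina1a about 5 reads over the 12 livers. For that reason a gene of the MHC at the lowest value is given as listed there and not as silent. Low levels above the lowest value carry the same limit, and the cause was not tested.

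Class I genes resemble each other so closely that short reads can be hard to assign. To show this, the 90-base stretch of coding sequence that was most alike across 7 class I genes is given below, read from GENCODE M21 on GRCm38 (mm10). It lies in exon 4, which encodes the α3 domain of the heavy chain, at chr17:35265831-35265920 (plus strand) in H2-D1, chr17:33997424-33997513 (minus) in H2-K1, chr17:35473130-35473219 (plus) in H2-Q10, chr17:35382905-35382994 (plus) in H2-Q4, chr17:36030961-36031050 (minus) in H2-T23, chr17:36014939-36015028 (minus) in H2-T24 and chr17:37272316-37272405 (plus) in H2-M3. Each sequence reads 5′ to 3′ along its gene, and capitals mark the bases that differ from H2-D1.
H2-D1: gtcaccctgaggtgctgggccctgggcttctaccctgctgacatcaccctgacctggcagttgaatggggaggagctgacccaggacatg
H2-T23: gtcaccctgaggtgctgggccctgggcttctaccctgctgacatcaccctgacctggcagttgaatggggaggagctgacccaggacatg
H2-K1: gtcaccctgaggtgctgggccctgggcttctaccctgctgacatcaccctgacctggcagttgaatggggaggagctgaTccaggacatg
H2-Q10: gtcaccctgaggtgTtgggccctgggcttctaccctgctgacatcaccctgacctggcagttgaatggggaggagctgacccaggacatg
H2-Q4: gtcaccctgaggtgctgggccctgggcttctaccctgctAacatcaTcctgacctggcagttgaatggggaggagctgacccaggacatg
H2-T24: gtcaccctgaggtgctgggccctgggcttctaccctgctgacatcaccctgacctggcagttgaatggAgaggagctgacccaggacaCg
H2-M3: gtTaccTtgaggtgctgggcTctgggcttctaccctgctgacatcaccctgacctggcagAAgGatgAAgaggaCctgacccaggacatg
H2-T23 was identical to H2-D1 over these 90 bases, H2-K1 and H2-Q10 each differed at 1 base, H2-Q4 and H2-T24 each at 2 bases, and H2-M3 at 9 bases. A read of 90 bases or fewer that fell wholly inside this stretch of H2-D1 could thus not be told from one of H2-T23.

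Over whole genes, shared sequence was measured in words of 50 bases from a gene's annotated transcripts. The value is the share of these words that also occur, on either strand, in transcripts of another gene. It counts any other gene, also one whose exons overlap at the same place, so it is not likeness between MHC genes alone. The median share was 11.0% in the 28 class I genes with a GENCODE gene, with a range from 0 to 53.5%, against 0.257% in the 10 class II genes. H2-T22 had 53.5% and its relative H2-T10 50.4%, and H2-T22 shared most with H2-T10, while H2-Q4 and H2-Q5 had 36.4% and H2-Q6 had 35.0%. In H2-T22, H2-T10 and H2-Q4, 29.4%, 27.1% and 19.1% of the exon bases also overlap exons of other genes. H2-Q10 had 19.1%, most of it shared with H2-Q7, H2-T23 had 14.5%, H2-D1 had 12.8%, H2-K1 had 9.63% and H2-T24 had 3.17%. The median was 14.5% in the 9 class I genes above 1 CPM and 9.55% in the 11 at the lowest value that could be matched. Among class II genes the pair H2-DMb1 (22.7%) and H2-DMb2 (25.9%) shared words with each other. How the authors counted reads that match several genes is not given in the sources used here, so the levels of the class I genes, and of H2-DMb1 and H2-DMb2, are uncertain by an amount that was not tested. The plot of shared words against level sets both values side by side for the 28 class I genes.

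**Figure D1:**
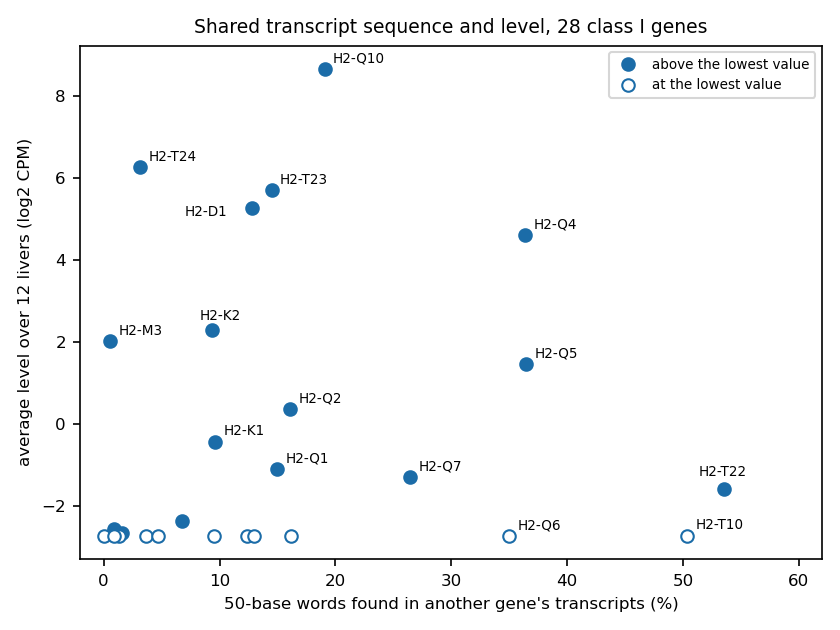
Each point is 1 of 28 class I genes, with the percentage of its 50-base words found in transcripts of another gene on the horizontal axis and the authors' average level over 12 livers in log2 CPM on the vertical axis; open circles are genes at the lowest value. Genes at the lowest value spread from 0 to 50.4% shared words and genes above 1 CPM from 0.576 to 36.4%.

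Of the 49 genes, 17 (34.7%) lay above 1 CPM, against 33.1% of all genes, and 16 were listed at the lowest value. Class I genes held 9 of 30 above 1 CPM and class II genes 3 of 10, both 30.0%, a share close to that of all genes. What set the classes apart was how high their upper members reached. The highest class I level was 407 CPM and the highest class II level 2.67 CPM, both as the authors' averages. In summed CPM, less the lowest value, class I had 614 CPM and class II 5.49 CPM, a ratio of 112. The medians ran the other way, at 0.168 CPM for class I and 0.320 CPM for class II, because 13 of the 30 class I genes and 2 of the 10 class II genes were listed at the lowest value. Among the 13 are H2-L and H2-T9, which have no gene in GENCODE M21 and were kept in these counts and medians. Which class stood higher thus depended on whether the typical gene or the sum was read. The plot of all listed levels shows both patterns.

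**Figure D2:**
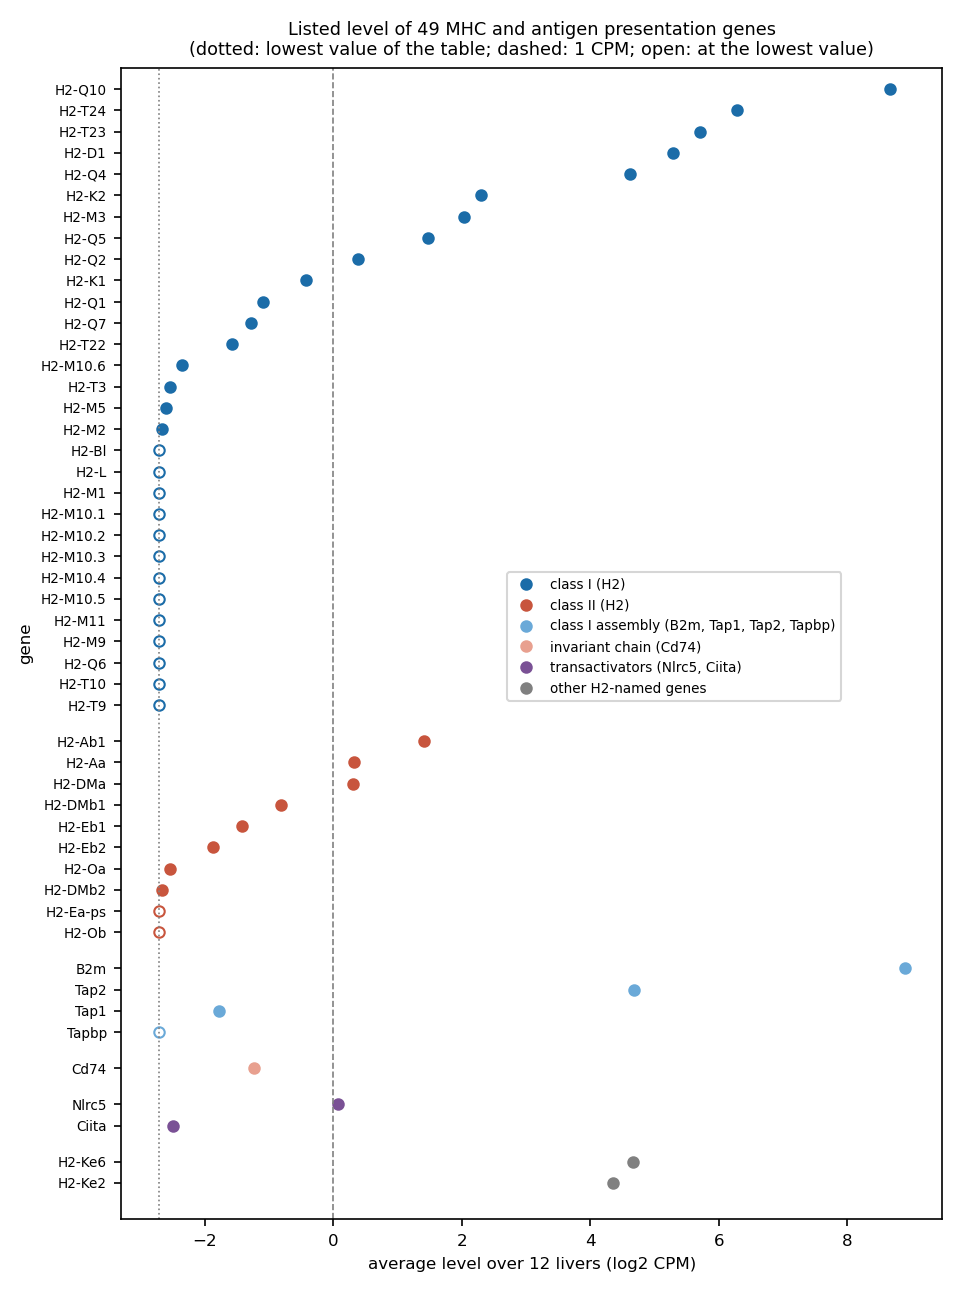
Each point is 1 of the 49 genes, grouped by role, with the authors' average level over 12 livers in log2 CPM on the horizontal axis; the dotted line is the lowest value of the table, the dashed line 1 CPM, and open circles are genes at the lowest value. Class I genes run from the lowest value up to 8.67 (H2-Q10), and class II genes end at 1.42 (H2-Ab1).

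Levels of different genes were compared per length, as CPM less the lowest value, divided by the kilobases of the GENCODE transcript with the longest coding sequence (the longest such transcript on ties, and the longest of all for the pseudogene H2-K2, which has no annotated coding sequence). Ratios between genes depend on that choice of length, so a ratio that moved by over 1.5 times with all annotated exons in place of 1 transcript is given with both values. No ratio moved that far with coding sequence alone. On this scale, CPM per kb, class I genes summed to 318 and class II genes to 4.25, a ratio of 74.7. Without H2-Q10 the ratio was 26.7 (43.1 per kb of all exons). The medians were 0.0211 CPM per kb over the 28 class I genes that could be matched and 0.113 CPM per kb over the 10 class II genes.

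H2-Q10 encodes a class I molecule that hepatocytes secrete. It lies at chr17:35470089-35474563 of GRCm38 (plus strand), is annotated as protein coding, and had an authors' average of 407 CPM. Per length it stood at 204 CPM per kb, the highest of all class I genes, and it made up 64.3% of the class I sum on that scale and 66.3% of the sum in CPM. The next class I genes were H2-T24 at 35.5 CPM per kb (77.7 CPM) and H2-T23 at 35.5 CPM per kb (52.4 CPM), whose levels per length had a ratio of 1.00 (1.97 per kb of all exons). H2-T23 encodes Qa-1, which presents signal peptides of other class I chains to receptors of NK cells. H2-Q10 was 5.75 times H2-T24 per length (2.63 times per kb of all exons), and the 4 highest class I genes together held 92.5% of the class I sum per kb.

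The classical class I genes encode the chains that present peptides to most CD8 T cells. H2-D1, at chr17:35262730-35267499 (plus strand), had an authors' average of 39.0 CPM and 18.5 CPM per kb. H2-K1, at chr17:33996017-34000347 (minus strand), had 0.748 CPM and 0.368 CPM per kb, from about 94 reads over the 12 livers. H2-D1 thus stood 50.3 times above H2-K1 per length, and H2-Q10 stood 11.0 times above H2-D1 (6.21 times per kb of all exons). The level of H2-K1 was close to the 0.704 CPM of the erythroid gene Alas2, so the 50.3 is a ratio of listed levels and may not measure RNA. H2-L, the third classical name, was listed at the lowest value and has no gene in GENCODE M21, whose sequence comes from C57BL/6J, a strain that lacks this gene. The pseudogene H2-K2, next to H2-K1 at chr17:33974659-33978827, had 4.91 CPM and 3.03 CPM per kb, more than H2-K1. Both genes share words with transcripts of other genes (9.38% and 9.63%), and what part this had in their levels was not tested.

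The remaining class I genes are given by their region of chromosome 17. In the Q region 4 of 7 genes (57.1%, against 33.1% of all genes) lay above 1 CPM: H2-Q10, H2-Q4 at 13.6 CPM per kb (24.6 CPM), H2-Q5 at 2.63 CPM per kb (2.78 CPM) and H2-Q2 at 0.912 CPM per kb (1.30 CPM). H2-Q5 is annotated as a polymorphic pseudogene, and 19.1% of the exon bases of H2-Q4 overlap exons of other genes, which an unstranded kit cannot separate. H2-Q7, which encodes the Qa-2 antigen, had 0.175 CPM per kb (0.414 CPM) and H2-Q1 had 0.158 CPM per kb (0.471 CPM), while H2-Q6 was listed at the lowest value. In the T region H2-T24 and H2-T23 were above 1 CPM, 2 of 7 genes (28.6%). Of the others there, H2-T22, a ligand of some γδ T cells, had 0.105 CPM per kb (0.337 CPM), H2-T3, which encodes the thymus leukemia antigen, had about 3 reads, and H2-T9, H2-T10 and H2-Bl were listed at the lowest value.

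The M region held the most genes at the lowest value, 8 of 12, against 36.1% of all genes. H2-M3, which presents peptides that start with formylmethionine, was the 1 gene of this region above 1 CPM, at 2.74 CPM per kb (4.09 CPM), and 0.576% of its words are shared with other genes. The M10 family, known from neurons of the vomeronasal organ, had 5 of 6 genes at the lowest value and H2-M10.6 at 0.0315 CPM per kb, from about 7 reads. H2-M5 and H2-M2 had about 2 reads and 1 read over the 12 livers.

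B2m, the light chain of class I molecules, had the highest level per length of the 47 genes with a transcript length. It lies at chr2:122147686-122153083 of GRCm38 (plus strand), and its authors' average was 474 CPM, or 552 CPM per kb. This was 2.70 times H2-Q10 and 1.74 times the sum of all class I genes per length. Per kb of all exons these ratios were 5.90 and 3.07. None of its 50-base words occur in another gene's transcripts.

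The genes of peptide transport and loading differed widely in their listed levels. Tap2 had 7.44 CPM per kb (25.7 CPM), whereas Tap1, its partner in the transporter, had 0.0470 CPM per kb (0.291 CPM, from about 22 reads), a ratio of 158 that was 267 per kb of all exons. They lie close together, Tap1 at chr17:34187553-34197225 and Tap2 at chr17:34203527-34216321, both on the plus strand. Tapbp, at chr17:33915899-33929292, was listed at the lowest value. Of the exon bases of Tapbp 29.0% overlap exons of other genes, against 18.5% in Tap2 and 3.87% in Tap1, and the part of this overlap in the levels was not tested.

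In the wider list of 14 genes for class I assembly and peptide supply, which includes these 4, 11 lay above 1 CPM (78.6%, against 33.1% of all genes). Among the 10 that do not belong to the 49 genes 9 did. The chaperone calreticulin (Calr) had 721 CPM per kb and the oxidoreductase Pdia3 433 CPM per kb. The proteasome activator subunit Psme1 had 105 CPM per kb and the immunoproteasome subunit Psmb10 41.7 CPM per kb. Canx (calnexin), a chaperone of most cells, was listed at the lowest value like Tapbp.

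Class II genes reached no more than 2.67 CPM. Their median of 0.320 CPM lay at percentile 55.5 of all genes, but at percentile 30.3 of the genes above the lowest value. Per length the chains of the I-A molecule led the class II genes. H2-Ab1, the β chain of I-A, at chr17:34257689-34269419 (plus strand), had an authors' average of 2.67 CPM and 2.08 CPM per kb, from about 397 reads over the 12 livers. H2-Aa, its α chain, at chr17:34282744-34287823 (minus strand), had 1.25 CPM and 0.972 CPM per kb, from about 173 reads. The β chain thus stood 2.14 times above the α chain per length, and H2-D1 of class I stood 8.91 times above H2-Ab1. Per kb of all exons these ratios were 3.39 and 15.4. H2-Eb1, the β chain of I-E, had 0.190 CPM per kb (0.375 CPM, about 35 reads), and its relative H2-Eb2 had 0.0356 CPM per kb (0.273 CPM, about 19 reads). H2-Ea-ps, the α chain of I-E, was listed at the lowest value. It is a pseudogene in C57BL/6 mice, which therefore lack I-E at the cell surface.

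H2-DM exchanges peptides on class II molecules and H2-O restrains it. H2-DMa had 0.655 CPM per kb (1.24 CPM, about 171 reads) and H2-DMb1 had 0.297 CPM per kb (0.570 CPM, about 66 reads), a ratio of 2.20 that was 1.27 per kb of all exons. H2-DMb2, which shares much of its sequence with H2-DMb1, had about 1 read. H2-Oa had about 3 reads, and H2-Ob was listed at the lowest value. Apart from the H2-DMb pair, H2-Oa (15.5%) and H2-DMa (8.43%) had the largest shares of words found in other genes among the class II genes. All of the H2-Oa share was with BC051537 and all of the H2-DMa share with Brd2. Of their exon bases, 22.8% and 10.4% overlap exons of other genes.

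Cd74, the invariant chain that guides class II molecules to the compartment where peptides are loaded, had an authors' average of 0.426 CPM and 0.194 CPM per kb, from about 43 reads over the 12 livers. Its level per length lay below those of H2-Ab1, H2-Aa, H2-DMa and H2-DMb1. The list of 12 genes for class II loading and invariant chain processing, which includes Cd74, had 5 above 1 CPM (41.7%, against 33.1% of all genes). Among the 6 outside the 49 genes 4 were. The reductase Ifi30 had an authors' average of 167 CPM and the protease Ctsl one of 573 CPM. The protease Ctss, which trims the invariant chain in B cells and dendritic cells, and March1, a ligase that removes class II molecules from the surface, were listed at the lowest value.

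The order of all genes above the lowest value is shown in the plot of levels per transcript length. B2m and H2-Q10 stood apart at its top, H2-Ab1 as the first class II gene took the 13th place, and Cd74 the 19th.

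**Figure D3:**
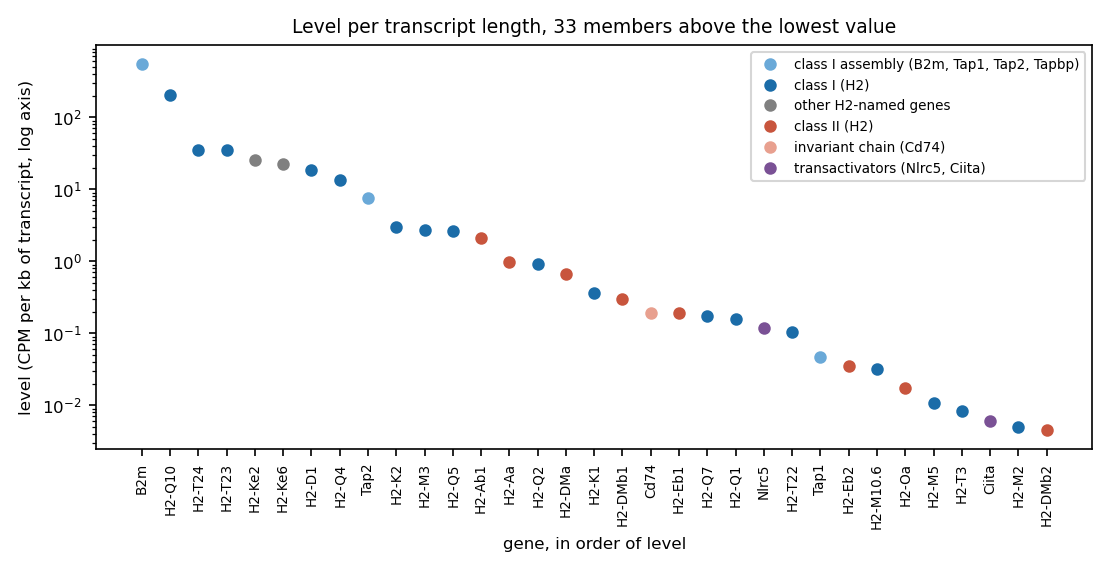
Each point is 1 of the 33 genes above the lowest value, in order of the authors' average less the lowest value, in CPM per kb of transcript on a log axis; colors give the role of the gene. The levels run from 552 CPM per kb for B2m to 0.00448 CPM per kb for H2-DMb2, and class II genes start at 2.08 CPM per kb.

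Nlrc5 and Ciita are the transactivators of class I and class II genes. Nlrc5, at chr8:94434356-94527272 (plus strand), had 0.119 CPM per kb (1.05 CPM, about 142 reads), and Ciita, at chr16:10480059-10528418 (plus strand), had 0.00599 CPM per kb (0.178 CPM, about 4 reads). Both act with the RFX and NF-Y factors at class I and class II promoters. Of the list of 14 regulators 7 were above 1 CPM, against 33.1% of all genes. Of these 7, 6 were among the 12 outside the 49 genes. Spi1, a factor of myeloid and B cells listed under its older symbol Sfpi1, had 26.8 CPM per kb. Rfxap of the RFX complex had 16.6 CPM per kb and the interferon regulatory factor Irf8 15.6 CPM per kb, while Rfx5 and Rfxank had about 10 and 5 reads. Of NF-Y, Nfyb had 7.19 CPM per kb (18.5 CPM), while Nfya and Nfyc were listed at the lowest value.

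H2-Ke2, which encodes a prefoldin subunit, and H2-Ke6, which encodes a steroid dehydrogenase, do not present antigen. Both were above 1 CPM, at 25.1 CPM per kb (20.4 CPM) and 22.2 CPM per kb (25.3 CPM). For H2-Ke6, 86.4% of the exon bases overlap exons of other genes and 70.5% of the words are shared, so its level cannot be told apart from that of the genes it overlaps.

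Class I-like genes that lie outside the H2 symbols had 3 of 9 above 1 CPM (33.3%), a share close to the 33.1% of all genes. They were Azgp1 at 18.4 CPM per kb, Hfe, which pairs with B2m and regulates iron uptake, at 10.4 CPM per kb, and Cd1d1, which presents lipids to NKT cells, at 1.18 CPM per kb. Mill1 was listed at the lowest value. The levels of these genes, of the pathway lists and of the cell type markers are drawn together in the plot of gene lists.

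**Figure D4:**
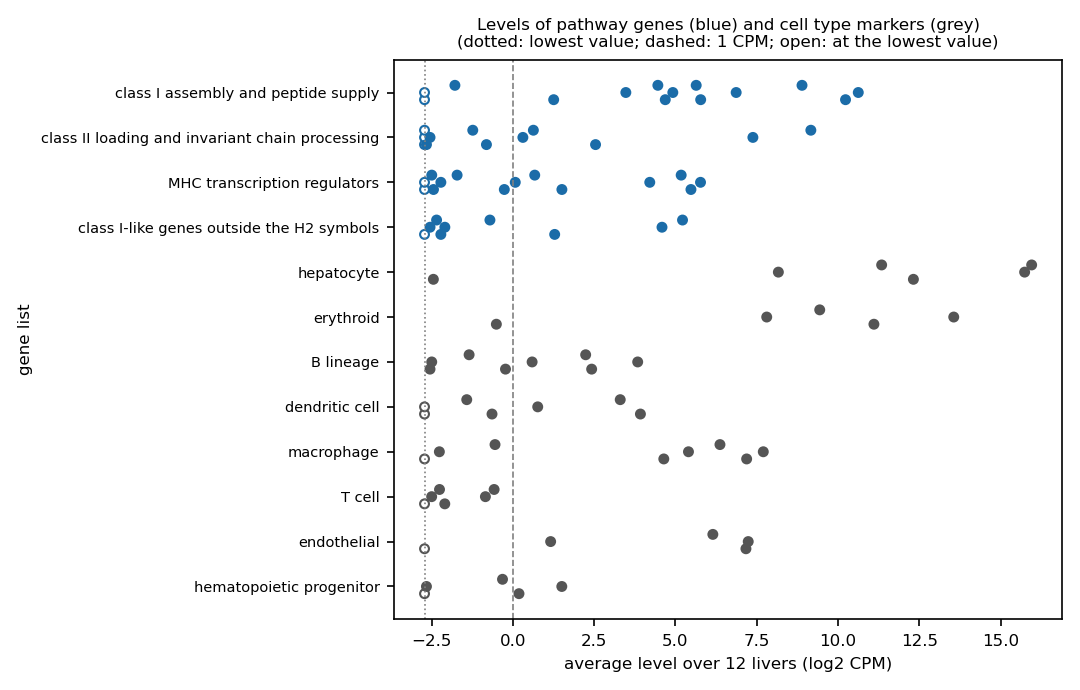
Each point is 1 gene of 4 pathway lists (blue) or 8 cell type marker lists (grey), with the authors' average level over 12 livers in log2 CPM on the horizontal axis; the dotted line is the lowest value, the dashed line 1 CPM, open circles are genes at the lowest value, and the vertical offset within a list has no meaning. Hepatocyte markers reach 63314 CPM, and no T cell marker lies above 1 CPM.

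The stretch before the start of each gene was read for the CCAAT box, the letters that NF-Y binds, in the RefSeq promoter windows of GRCm38.p6, trimmed to the 250 bases before the start and searched on both strands for CCAAT. H2-Q10 (chr17:35469839-35470088, plus strand), H2-D1 (chr17:35262844-35263093, plus strand) and H2-K1 (chr17:34000334-34000583, minus strand, the inner of its 2 listed starts) are shown as the highest class I gene and the classical pair whose listed levels per length lay 50.3-fold apart. The sequences read 5′ to 3′ toward the start, and capitals mark the matches, with a match on the other strand reading ATTGG.
H2-Q10: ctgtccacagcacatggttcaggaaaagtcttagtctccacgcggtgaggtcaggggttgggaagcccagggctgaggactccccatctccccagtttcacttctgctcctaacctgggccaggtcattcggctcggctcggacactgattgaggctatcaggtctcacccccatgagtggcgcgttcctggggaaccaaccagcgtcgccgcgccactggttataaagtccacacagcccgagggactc
H2-D1: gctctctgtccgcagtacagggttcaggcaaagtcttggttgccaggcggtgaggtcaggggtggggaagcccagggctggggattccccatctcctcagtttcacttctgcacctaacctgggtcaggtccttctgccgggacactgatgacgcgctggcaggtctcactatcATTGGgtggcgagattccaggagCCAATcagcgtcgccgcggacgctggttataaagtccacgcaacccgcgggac
H2-K1: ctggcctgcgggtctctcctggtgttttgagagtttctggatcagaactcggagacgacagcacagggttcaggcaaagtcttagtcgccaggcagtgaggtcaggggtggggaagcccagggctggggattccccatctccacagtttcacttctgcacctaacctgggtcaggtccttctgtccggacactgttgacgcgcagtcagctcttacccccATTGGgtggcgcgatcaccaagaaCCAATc
H2-D1 held 2 matches and H2-Q10 none. H2-K1 held 2 matches in the window shown and 1 in the window of its outer start (chr17:34000348-34000597). No match says only that the letters are not in this window. The windows follow RefSeq starts, and that of H2-D1 lies inside the GENCODE span of the gene given above. The H2-K1 window shown ends just after its CCAAT, while that of H2-D1 runs on beyond its own. The windows are thus not aligned between genes, and their counts are not of like stretches.

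Over all class I genes with a window, CCAAT occurred in 21 of 24 windows (87.5%) and over class II genes in 8 of 9 (88.9%), against 33.8% of all 32851 windows. The class I windows without it were those of H2-Q10, H2-M5 and H2-T3, and the class II window without it was 1 of 2 of H2-DMa. B2m had 1 match. Class I genes are copies of one another, so their windows are not independent, and a match describes the letters and not a bound site.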

How the data were processed

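Whole-liver polyA RNA of 6 control and 6 HFD male fetuses was prepared with a kit that does not keep strand. The submitters' processing notes name cutadapt 1.2.1, Subread 1.3.6-p1, edgeR and mm10. The authors deposited 1 table with an average log2 CPM, in 2 identical columns, and with 8 columns of their diet comparison (fold changes and p-values, raw and adjusted), which were not used. The planned test of the diets needs a count for each liver and was not run, and depth per liver is not known. CPM was taken back from the deposited log2 value. The lowest CPM was subtracted for sums, read estimates and levels per kb of GENCODE M21 transcripts (47 of 49 genes matched by symbol). The step of 1 read was set by 1267 genes. Named were genes above 1 CPM, classical and class II genes, and of other lists the highest and those at the lowest value; a few others were named after their values were seen. Genes and lists were chosen with earlier results of these data known. Read estimates were checked on simulated counts averaged by the same formula that the estimates invert. That checks the calculation and does not show that the read totals hold for these data. Python 3.11.15, numpy 2.4.6, pandas 2.3.3 and matplotlib 3.10.9 were used.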

Additional observations from a re-analysis of the deposited data

How the results depend on the processing

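The class I median of 0.168 CPM became 0.0157 with the lowest value subtracted, 0.748 for the classical genes alone, 1.30 without genes at the lowest value and 0.740 as a mean of log2 values. The class II median of 0.320 CPM became 0.168, 1.25, 0.462 and 0.415 in the same order, and 0.375 without pseudogenes. The classical class I value of 0.748 is the level of H2-K1, as the middle of H2-D1 (39.0 CPM), H2-K1 and H2-L. H2-L was listed at the lowest value and is absent from C57BL/6J, so 0.748 against 1.25 does not rank the classical genes of the classes. The class I minus class II difference of medians, -0.93 on the log2 scale, was -3.41 with the lowest value subtracted, -3.60 per kb of coding sequence, -2.42 per kb of transcript and -1.97 per kb of all exons. It turned to 1.50 without genes at the lowest value and to 6.81 with sums in place of medians, the direction being set by the 13 class I genes at the lowest value and by the few high ones. The per-transcript and all-exon scales, the difference without genes at the lowest value, the sums and the other lengths for ratios between genes were chosen after seeing the data. Above 2 CPM class II held 1 gene in place of 3, and class I 8 in place of 9, and above 0.5 CPM they held 4 and 10. DESeq2, other filters and leaving out each liver were not run, since they need counts of single livers. No paired analysis was possible because no value of a single liver was used.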
